A study of Mus musculus with 4 samples.

Results

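The potassium channel genes measured here are all genes whose symbol starts with Kcn, which covers pore-forming subunits, auxiliary subunits and a few overlapping non-coding RNAs, with Kcng4 left out by the rule that chose them. They number 83 of the 19087 genes named on the array, and are read by 141 of its 45220 features, a feature being the spot of 1 probe. Of these features, 138 had a usable signal, and each of the 83 genes kept at least 1. Features of a gene were averaged.

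RNA was taken from the globus pallidus, a nucleus of the basal ganglia whose GABA neurons fire steadily and inhibit their targets. Conditioned place preference, in which an animal comes to prefer the compartment where it was drugged, was the behavioural protocol. The cocaine mice were C57BL6 males that received 15 mg/kg on days 2, 3 and 4 of the protocol and had a high preference score, and the saline mice were C57BL6 males that received saline on the same days. Each of 4 Agilent whole-genome arrays, which compare 2 RNA samples in 2 dyes, held 1 cocaine mouse and 1 saline mouse, so there were 4 mouse pairs. Cocaine RNA carried Cy5 in pairs 1 and 3 and Cy3 in pairs 2 and 4. The sources used here give no age, no interval between the last injection and dissection, and no scores for the saline mice. The globus pallidus was taken as a whole, so fewer cells of a type and less RNA per cell cannot be told apart. All 12 pallidal neuron markers looked for, among them Pvalb, Npas1 and Gad1, had a feature above 150 scanner units. So did 11 of 12 measured striatal projection neuron markers and all 11 measured astrocyte markers, so this is not particular to pallidal neurons. With 4 arrays, precision is limited throughout.

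Potassium channels let potassium leave the cell and so return the membrane toward rest. Voltage-gated families shape the spike and its repetition, calcium-activated families set the pause after it, inward rectifiers and leak channels hold the resting potential, and auxiliary subunits change how the pores gate or where they sit. In the globus pallidus, fast delayed rectifiers of the Kcnc family are known for keeping spikes brief, and calcium-activated channels of the Kcnn family for keeping the pacemaking regular.

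No potassium channel gene differed between cocaine and saline mice past the threshold. The values are log2 ratios of cocaine over saline. That direction is likely rather than stated, because the cocaine mice come first in the design text while the deposited table does not say which treatment is the numerator. The fitted change of a gene is the mean of its 4 pair ratios, and ± is the moderated standard error from limma over 4 pairs. At a Benjamini-Hochberg adjusted p under 0.05 over all 18825 genes fitted, 0 of 83 members were called, and the background was 0% of all genes. At an unadjusted limma p under 0.05 there were 2 members, Kcnma1 and Kcnc4, which is 2.41% of members against 2.63% of all genes. The smallest adjusted p among members was 0.963.

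The members lay close to 0. Their median change was 0.011 against -0.0065 for all genes. Above 0 lay 47 members and below it 36, which is 56.6% above 0 against 46.6% of all genes. The median size of a change was 0.051 in members and 0.050 in all genes. Changes smaller than 0.1 in size were found for 62 members and smaller than 0.3 for 81. For 77 members the whole 95% interval lay within 0.5 of 0, so in those genes a change beyond that size lies outside the interval. The shares of all genes within these bounds were not computed. The 4 pairs shared a direction above 0 in 2 members (Kcnma1 and Kcnj16) where 2.53% of all genes did, and below 0 in 0 members where 3.23% did. Member medians by pair were -0.023, 0.053, -0.044 and 0.0095 in pairs 1 to 4, with pairs 2 and 4 above pairs 1 and 3. Signs of small changes depended on the normalization. With median centring in place of loess, 9 of 40 members named by rule changed sign, among them Kcna1 at -0.15, Kcnc1 at -0.13, Kcnc2 at -0.098 and Kcnj10 at -0.15.

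**Figure D1:**
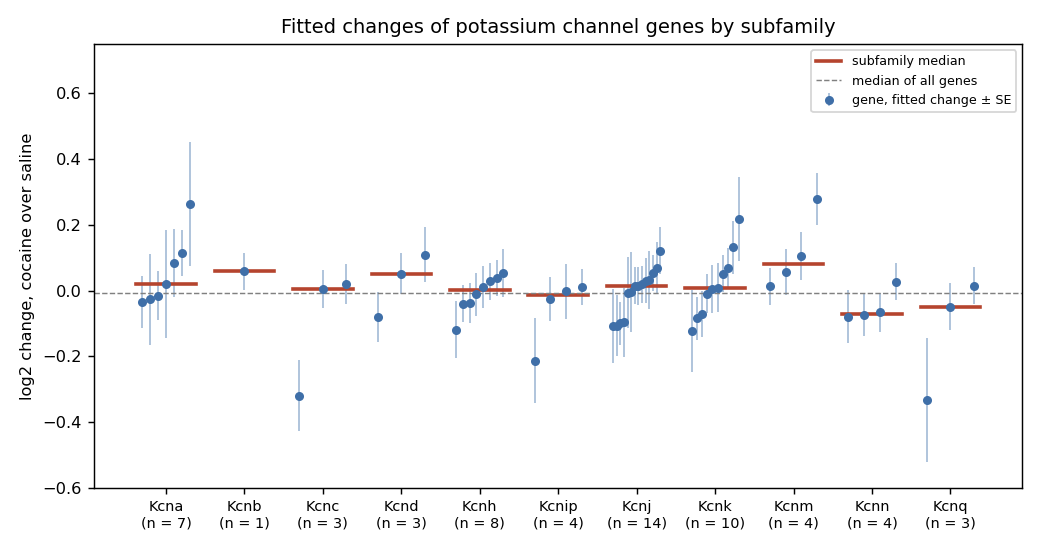
Fitted log2 change (cocaine over saline) of each gene of the 11 subfamilies, as points with the moderated standard error from 4 pairs, a red bar for the subfamily median and a dashed line for the median of all genes. Subfamily medians lie between -0.071 (Kcnn) and 0.081 (Kcnm), and Kcnc4, Kcnq3 and Kcnip3 lie lowest.

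Among calcium-activated and related channels, Kcnma1 had the smallest p of all members. It encodes the pore of the large-conductance BK channel, which opens with calcium and depolarisation together and shortens spikes. Its ratios were 0.46, 0.36, 0.094 and 0.20 in pairs 1 to 4. Every pair lay above 0, with pair 1 highest and pair 3 lowest. The fitted change was 0.28 ± 0.079 (95% interval 0.084 to 0.47; unadjusted limma p 0.0126, adjusted p 0.963). The exact two-sided sign-flip test over the 4 pairs gave p = 0.125, the smallest that 4 pairs allow. Without pair 1 the change was 0.19 with an unadjusted p of 0.0773. The gene is read by 1 feature, with a recovered signal of 256 scanner units.

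The start regions of Kcnma1 and Kcnc4, the members below unadjusted p 0.05, are shown because cocaine is known to act on the factors CREB and AP-1 in the striatum, whose motifs can be looked for there. They are RefSeq sequences on GRCm38.p6, 250 bases before to 50 after the transcript start, on the minus strand. Capitals mark the motif TGACG, the core of the cAMP response element.
Kcnma1, chr14:24004156-24004455: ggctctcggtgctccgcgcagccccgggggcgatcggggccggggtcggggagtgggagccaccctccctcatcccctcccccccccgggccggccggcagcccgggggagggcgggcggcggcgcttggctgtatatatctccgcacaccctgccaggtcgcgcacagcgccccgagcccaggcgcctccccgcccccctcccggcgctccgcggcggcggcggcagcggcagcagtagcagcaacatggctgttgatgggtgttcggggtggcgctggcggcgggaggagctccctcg
Kcnc4, chr3:107458849-107459148: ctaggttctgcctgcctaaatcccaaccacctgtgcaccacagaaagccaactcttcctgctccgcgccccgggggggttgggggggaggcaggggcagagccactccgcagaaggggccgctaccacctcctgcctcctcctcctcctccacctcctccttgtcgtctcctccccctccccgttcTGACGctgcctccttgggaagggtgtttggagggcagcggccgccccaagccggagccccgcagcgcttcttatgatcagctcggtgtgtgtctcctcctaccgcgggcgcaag
The Kcnc4 region holds TGACG in 1 place and the Kcnma1 region in 0. The Kcnma1 region is 78% G and C and that of Kcnc4 66.7%. Over both strands, TGACG was found in 17 of 88 start regions of the 63 members with an entry (19.3%), against 20.8% of 32851 regions of all genes. Counted by gene, 17 of 63 members held it (27%), against 23% of 27025 genes. The full element TGACGTCA, of which TGACG is a part, was in 0 of 88 against 1.79%. The AP-1 motif TGANTCA was in 4 of 88 (4.55%) against 7.81%. These matches describe letters and are not evidence of binding.

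The other BK subunits had values nearer 0. Kcnmb4, the neuronal beta subunit that slows BK gating, had ratios of 0.086, -0.085, 0.018 and 0.20 and a change of 0.056 ± 0.070. Kcnmb2, a beta subunit that inactivates the channel, had 0.048, 0.39, -0.25 and 0.23 and a change of 0.11 ± 0.073. In Kcnmb2 the pairs with cocaine in Cy3 were the highest. The 4 Kcnm genes were all above 0 after loess, with Kcnmb1, the smooth muscle beta subunit, lowest at 0.013, while Kcnmb4 stood at -0.17 with median centring in place of loess. Their median was 0.081. Pair medians of the subfamily were 0.067, 0.27, -0.063 and 0.20, so pair 3 lay below 0. Kcnu1, the BK relative of sperm, had ratios of -0.21, -0.44, -0.14 and 0.12 and a change of -0.17 ± 0.098.

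The small- and intermediate-conductance calcium-activated channels, Kcnn1 to Kcnn4, had the lowest subfamily median, -0.071, with 1 gene above 0 and 3 below. Pair medians were -0.066, 0.036, -0.14 and -0.0066, with pair 2 above 0 and the others below. Kcnn1 had ratios of -0.16, -0.14, -0.27 and 0.26 and a change of -0.080 ± 0.081. Kcnn3, the SK subunit known from dopamine neurons, had -0.12, 0.067, -0.15 and -0.064, a change of -0.067 ± 0.058. Kcnn4, the intermediate-conductance channel of blood cells and microglia, stood at -0.074 ± 0.062. Kcnn2, an SK subunit of many central neurons, was read by 11 features and had 0.0072, 0.12, -0.068 and 0.051, a change of 0.027 ± 0.057 with an interval of -0.11 to 0.17. The sodium-activated channels Kcnt1 and Kcnt2 stood at -0.034 ± 0.055 and 0.083 ± 0.063.

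Kcnc4, a Shaw-family channel with fast inactivation, was the other member below unadjusted p 0.05. Its ratios were -0.27, -0.83, 0.16 and -0.34. Pairs 1, 2 and 4 lay below 0, pair 2 furthest, and pair 3 lay above it. The fitted change was -0.32 ± 0.11 (interval -0.58 to -0.057; unadjusted limma p 0.0247, adjusted p 0.963). Its 1 feature lies on the array where the neighbouring features (a block of 7 by 7, itself left out) had a median ratio of -0.27 in pair 4. A neighbourhood median below -0.25 in that pair was found for 0.175% of named features. With each feature's neighbourhood median subtracted, an alternative chosen after seeing the data, the change was -0.29 with an unadjusted p of 0.0944. The unadjusted p was 0.124 without pair 1, 0.0993 without pair 2 and 0.085 without the dye term. It stayed under 0.05 without pair 3 and without pair 4, where 5.79% and 13% of all genes were. The part of array position in this value was not tested further.

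The other Shaw channels, Kcnc1 and Kcnc2, let fast-spiking neurons such as the parvalbumin cells of the pallidus repolarise quickly. Kcnc1 had ratios of -0.0074, -0.024, -0.036 and 0.089, a change of 0.0056 ± 0.057 and an interval of -0.13 to 0.15. Kcnc2 had 0.13, -0.15, 0.062 and 0.039, a change of 0.020 ± 0.062 and an interval of -0.13 to 0.17. In both genes the pairs lay on both sides of 0, and the 3 features of each disagreed in sign. The parvalbumin gene Pvalb itself had a change of 0.064 ± 0.072.

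**Figure D2:**
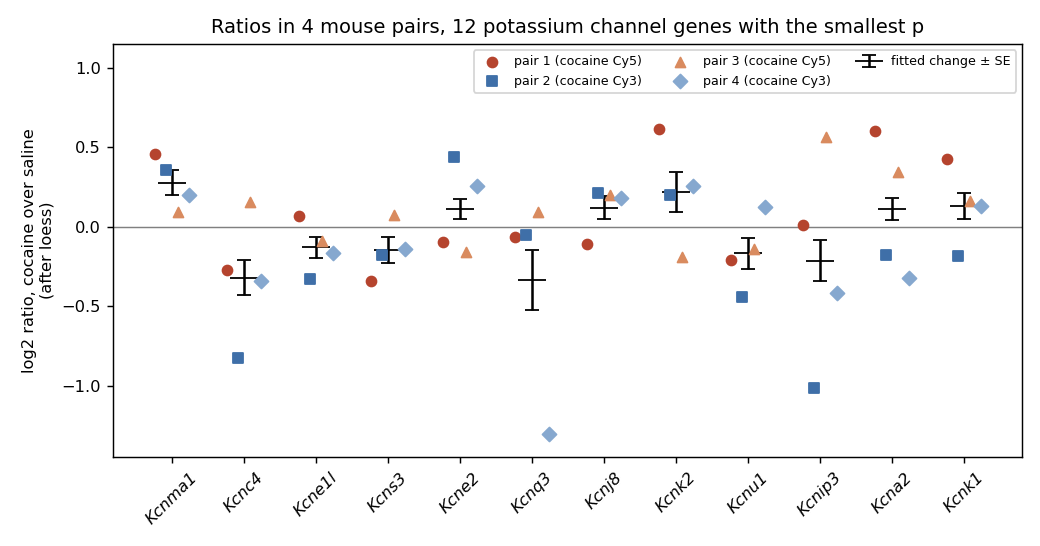
Log2 ratio of cocaine over saline after loess in each of the 4 mouse pairs (red shades: cocaine in Cy5; blue shades: cocaine in Cy3) for the 12 members with the smallest unadjusted p, with the fitted change and its standard error in black. The 4 points of Kcnma1 lie above 0, the Kcnq3 estimate is drawn down by pair 4 at -1.30, and the points of the other 10 genes fall on both sides of 0.

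The Shaker channels of the Kcna family carry low-threshold currents that dampen repetitive firing, many of them on axons. Kcna1 had ratios of 0.20, 0.40, -0.21 and -0.049 and a change of 0.083 ± 0.10. Kcna2, which assembles with Kcna1 on axons, had 0.60, -0.17, 0.35 and -0.32, a change of 0.11 ± 0.069. Its pairs split by dye, with the Cy5 cocaine pairs above 0 and the Cy3 cocaine pairs below. Kcna5, best known from atrial muscle, was the highest of the family with 0.22, 1.06, -0.064 and -0.16 and a change of 0.26 ± 0.19. Pair 2 lay far above the other pairs, and without it the change was -0.042. Kcna3, the channel of lymphocytes and some neurons, was lowest at -0.036 ± 0.079. The median of the 7 Kcna genes was 0.020, with 4 above 0 and 3 below.

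The delayed rectifier Kcnb2 had ratios of 0.33, -0.19, 0.35 and -0.26 and a change of 0.058 ± 0.056, again with the sign following the dye. The Shal channels Kcnd2 and Kcnd3 carry the fast transient current of dendrites. Kcnd2 had 0.022, 0.22, 0.32 and -0.12 and a change of 0.11 ± 0.084. Kcnd3 had 0.053, 0.19, -0.12 and 0.077, a change of 0.051 ± 0.062, and Kcnd1 was lowest at -0.081 ± 0.077. In each of the 3 Kcnd genes at least 1 pair lay on either side of 0.

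The 8 ether-a-go-go channels of the Kcnh family had a median of 0.000041, with 4 above 0 and 4 below. Kcnh2, the channel of late cardiac repolarisation that is also found in neurons, was lowest. Its ratios were -0.11, -0.35, -0.14 and 0.12 and its change -0.12 ± 0.088. Kcnh7, a close neuronal relative, had -0.013, 0.053, 0.0055 and 0.11, a change of 0.039 ± 0.056, and Kcnh5 was highest at 0.053 ± 0.073. All 8 changes lay between -0.12 and 0.053.

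The Kcnq family carries the M-current, which muscarinic receptors close. Kcnq3, a subunit of the channels of this current, had the lowest fitted change of all 83 members, and it rests on 1 array. Its ratios were -0.066, -0.053, 0.091 and -1.30. Pairs 1 to 3 lay near 0 and pair 4 alone lay far below. The change was -0.33 ± 0.19 (interval -0.79 to 0.13; unadjusted limma p 0.128). Without pair 4 it was -0.020. The deposited ratios before loess were -0.13, -0.031, -0.020 and -1.20. The feature is dim, with a recovered signal of 83.8 units, and its neighbours had a median of -0.28 in pair 4. Kcnq5, another M-current subunit, had 0.037, 0.025, 0.050 and -0.055 and a change of 0.014 ± 0.056. Kcnq1, the epithelial and cardiac member, had 0.60, -0.92, 0.85 and -0.72 and a change of -0.049 ± 0.071, with the sign following the dye. The Kcnq median was -0.049 over 3 genes.

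Inward rectifiers were the largest subfamily, with 14 genes, a median of 0.015 and changes from -0.11 to 0.12. Kcnj3, Kcnj6 and Kcnj9 form the channels that G protein beta-gamma subunits open after GABA, dopamine or opioid receptors act. Kcnj3 had ratios of 0.24, 0.016, 0.078 and -0.22 and a change of 0.029 ± 0.068. Kcnj9 had -0.20, -0.18, -0.071 and 0.047, a change of -0.10 ± 0.066, with pairs 1 to 3 below 0 and pair 4 above. Kcnj6, read by 10 features, had -0.053, 0.11, -0.046 and 0.047, a change of 0.014 ± 0.056 and an interval of -0.12 to 0.15.

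Among the classical inward rectifiers that hold the resting potential, Kcnj4 had -0.087, 0.45, -0.20 and -0.19 and a change of -0.0072 ± 0.11. Pair 2 lay above 0 and the others below. Kcnj12, of the same kind, was the lowest of the subfamily with -0.57, 0.090, 0.10 and -0.063, a change of -0.11 ± 0.11, and without pair 1 it was 0.057. Kcnj8, the pore of the ATP-sensitive channel of mural cells, was highest. Its ratios were -0.11, 0.21, 0.20 and 0.18, with pair 1 alone below 0, and its change was 0.12 ± 0.071. Its sulfonylurea receptor partner Abcc9 had 0.32, -0.15, 0.64 and -0.30 and a change of 0.13 ± 0.076, and the 10 mural cell markers, which include Abcc9, had a median of -0.025 with 5 above 0. Kcnj11, the neuronal ATP-sensitive pore, stood at -0.096 ± 0.10.

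Kcnj10 is the channel through which astrocytes take up potassium. It had ratios of -0.20, 0.059, 0.11 and 0.30 and a change of 0.069 ± 0.079, with pair 1 below 0 and the others above. Kcnj16, which can join it in a heteromer, had 0.053, 0.055, 0.0049 and 0.10, a change of 0.053 ± 0.056. All 4 pairs of Kcnj16 lay above 0, and its change was smaller than its standard error. The 11 astrocyte markers had a median of 0.064, with 7 above 0 and pair medians of 0.15, -0.047, 0.097 and -0.022. The part of astrocyte content in these values was not tested.

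The 2-pore leak channels of the Kcnk family had a median of 0.0063 over 10 genes, with 6 above 0. Kcnk2, a leak channel opened by stretch and lipids, was highest. Its ratios were 0.61, 0.20, -0.19 and 0.26, with pair 3 alone below 0. The change was 0.22 ± 0.13, and it was 0.017 without pair 1 and 0.42 without pair 3. Kcnk1, a weakly rectifying leak channel, had 0.42, -0.19, 0.16 and 0.13, a change of 0.13 ± 0.081. Kcnk3, closed by acid, had -0.023, -0.30, 0.026 and -0.041, a change of -0.085 ± 0.067. Kcnk12 was lowest with -0.63, -0.14, 0.041 and 0.24, a change of -0.12 ± 0.12, and without pair 1 it was 0.045. Kcnk13, the leak channel of microglia, stood at -0.0095 ± 0.060, beside a median of 0.021 over 10 microglia markers.

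Auxiliary subunits, 15 genes in all, had a median of 0.0090 with 9 above 0, against 0.011 for the 65 pore-forming and silent subunits. The calcium-binding Kcnip proteins bring Kcnd channels to the surface. Kcnip3, known also as a calcium-dependent repressor of transcription, was the lowest auxiliary subunit. Its ratios were 0.013, -1.01, 0.56 and -0.41. Pairs 2 and 4 lay below 0, pair 1 near it and pair 3 above. The change was -0.21 ± 0.13 (interval -0.53 to 0.10; unadjusted limma p 0.149), and both of its features were below 0, at -0.30 and -0.12. Kcnip1 had -0.35, 0.12, -0.25 and 0.37, a change of -0.026 ± 0.067, and Kcnip2 was highest at 0.011 ± 0.056. Dpp6 and Dpp10, the membrane proteins that complete Kcnd channels, stood at -0.013 ± 0.093 and -0.029 ± 0.063.

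The Kcne genes encode small membrane proteins that retune several pores. Kcne1l (Kcne5 in newer nomenclature) had ratios of 0.068, -0.33, -0.089 and -0.17 and a change of -0.13 ± 0.064, with pair 1 alone above 0. Kcne2 had -0.094, 0.44, -0.16 and 0.26, a change of 0.11 ± 0.062, with the sign following the dye. The cytoplasmic beta subunits Kcnab1, Kcnab2 and Kcnab3, which bind Kcna channels, stood at 0.0090, 0.017 and -0.13. Silent subunits, which conduct only together with Kcnb channels, ranged from -0.15 (Kcns3) to 0.057 (Kcnf1). Kcns3 had -0.34, -0.17, 0.074 and -0.14 and a change of -0.15 ± 0.081, and without pair 1 it was -0.042.

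The 3 non-coding RNAs were kept out of the subfamily medians. Kcnq1ot1, the antisense RNA that silences an imprinted gene cluster, had ratios of 0.23, 0.13, 0.13 and -0.24 over 5 features and a change of 0.061 ± 0.077. Kcnmb4os1 and Kcnmb4os2, transcripts opposite Kcnmb4, stood at 0.10 ± 0.064 and -0.063 ± 0.071.

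Genes outside the Kcn symbols that act on these channels were read from 3 lists, and 0 of their members passed the adjusted threshold in limma. At an unadjusted p under 0.05 there was 1, where 2.63% of all genes were. Of 21 measured partner proteins, 13 were above 0, and their median was 0.016. Ank3, the ankyrin that anchors Kcnq channels at the axon start, had 0.48, 0.49, -0.020 and 0.090 and a change of 0.26 ± 0.11 (unadjusted limma p 0.0508). Amigo1, an adhesion protein bound to Kcnb channels, had -0.11, -0.57, 0.15 and -0.25, a change of -0.20 ± 0.081 (unadjusted limma p 0.0518). Of 8 measured genes of potassium transport, 6 were above 0. Atp1b1, the beta subunit of the sodium pump, had 1.01, 0.62, 0.016 and 0.32. All 4 pairs lay above 0, pair 1 highest, and the change was 0.49 ± 0.16 (unadjusted limma p 0.0208, adjusted p 0.963). Gja1, the gap junction protein of astrocytes, had 0.74, -0.047, 0.018 and -0.022, a change of 0.17 ± 0.12, a value carried by pair 1. Of 22 genes that feed G protein and phosphoinositide control of Kcnj and Kcnq channels, 11 were above 0 and the median was -0.0019. Gnb5, a G protein beta subunit, stood at 0.19 ± 0.087, and Gng3, a gamma subunit, at -0.14 ± 0.080.

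In the main fit the dye term was called for more members than the treatment, but for a smaller share of members than of all genes. The dye term of the fit is the part of the Cy5 over Cy3 ratio, with the likely direction, that is the same in both labellings. In the ratio of cocaine over saline that part changes sign with the labelling. The dye term was called at an adjusted limma p under 0.05 for 5 of 83 members (6.02%), where 11.9% of all genes were. Kcna2, Kcnb2, Kcnk4 and Kcnq1 were higher in Cy5, by 0.36, 0.28, 0.39 and 0.77, and Kcnv2 had a term of -0.27. Kcnb2, Kcnk4, Kcnq1 and Kcnv2 each rest on 1 dim feature, of 90.7, 100, 64.0 and 87.9 scanner units. With dim features left out no member had a called dye term, as given in the last section. In 62 members the dye term was larger in size than the fitted change. The share of all genes for which this holds was not computed, so the count is not read as particular to members. The median size of the dye term was 0.11 in members and 0.10 in all genes. Kcnma1, by contrast, had a dye term of -0.0013, while Kcnc4, Kcnq3 and Kcnip3 had 0.26, 0.34 and 0.50, none of them called. The dye term stays in the fit when 1 pair is left out.

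**Figure D3:**
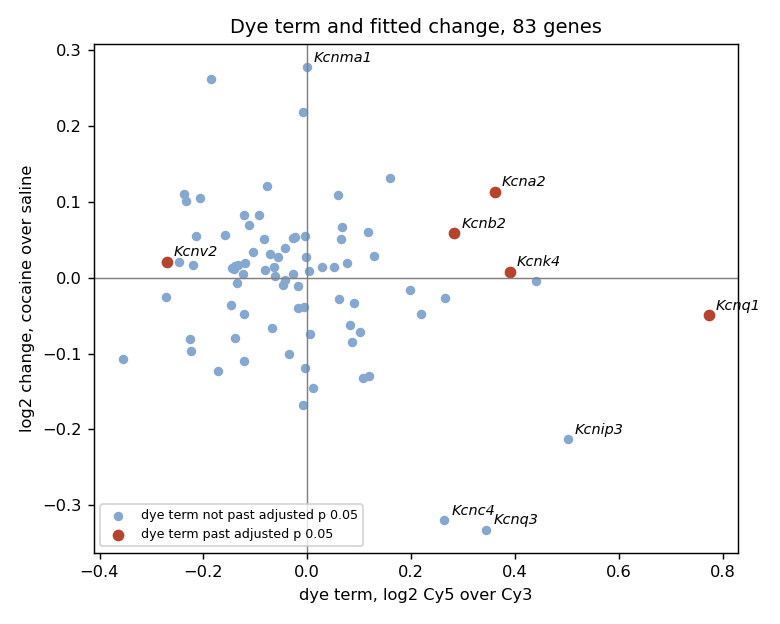
Dye term (log2, Cy5 over Cy3) on the x axis against the fitted change (log2, cocaine over saline) on the y axis for the 83 members, with the 5 members whose dye term passed adjusted p 0.05 in red. Kcnq1 lies furthest right at 0.77 with a change of -0.049, and Kcnma1 lies highest with a dye term of -0.0013.

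The fitted changes were refitted with each pair left out in turn. Of the 40 members named by rule, 18 crossed 0 in these fits, and of the 10 members with the smallest p, 0 did. Those 10, with Kcnma1 and Kcnc4 among them, were picked by p on the same pairs. Their keeping a sign is largely set by that choice and is no separate support. Kcnma1 kept its sign, between 0.19 and 0.37, as did Kcnc4, between -0.44 and -0.20. Kcnq3 ranged from -0.64 without pair 2 to -0.020 without pair 4. Kcnip3 ranged from -0.36 to -0.063 and Kcnk2 from 0.017 to 0.42. At an unadjusted limma p under 0.05 there were 0, 4, 7 and 9 of 83 members without pair 1, 2, 3 and 4, where 0.967%, 2.28%, 5.79% and 13% of all genes were, so that the number moves with the array left out over the whole table.

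**Figure D4:**
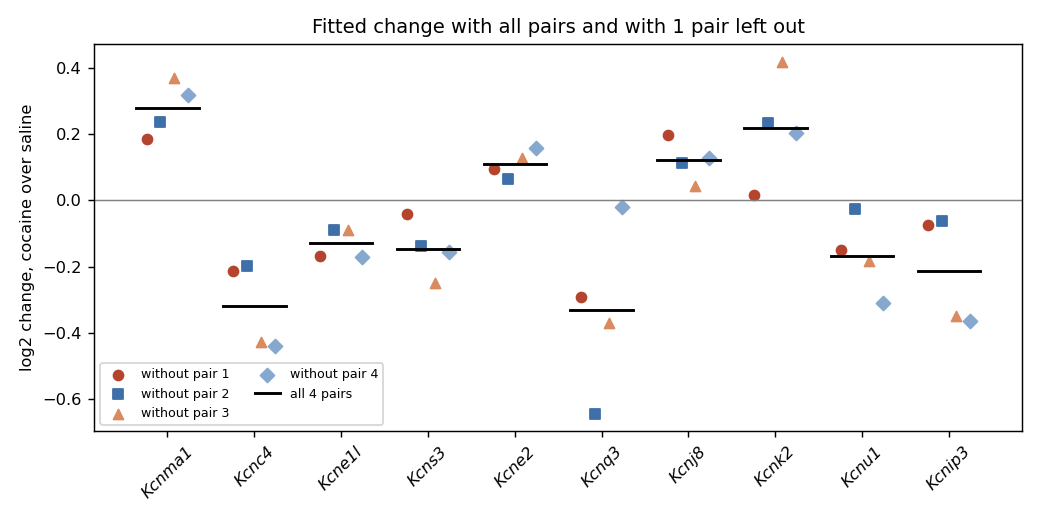
Fitted log2 change (cocaine over saline) with all 4 pairs, as a black bar, and with each pair left out in turn, as points, for the 10 members with the smallest unadjusted p. Kcnq3 lies at -0.020 without pair 4 and at -0.64 without pair 2, whereas the points of Kcnma1 stay between 0.19 and 0.37.

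Genes with many features show how far the values of single spots spread after loess. The 10 features of Kcnj6 had SDs of 0.13, 0.12, 0.19 and 0.12 within pairs 1 to 4, and the 11 features of Kcnn2 had 0.22, 0.11, 0.064 and 0.074. These SDs are over spots of 1 array, which can be different probes of the gene, not over mice, and are larger than most fitted changes of the members. In pair 1, 1 Kcnn2 feature read 0.66 while the mean of the 11 was 0.0072. That feature was the dimmest of the 11, at 141 scanner units, where the brightest had 2054. Part of the Kcnn2 spread arises with loess on the recovered signal. In pair 2 the brightest feature and 1 of 809 units both had a deposited ratio of -1.91. After loess they read 0.22 and -0.022. The SDs thus hold differences in recovered signal as well as differences between spots, and the share of each was not tested. The Kcnj6 features were all dim, at 77 to 112 units. Of the 30 members with several features, 17 had features that disagreed in sign, and the 53 others rest on 1 feature each. In 38 members no feature reached 150 scanner units. Whether background was subtracted before the ratios were taken is not given in the sources used here.

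**Figure D5:**
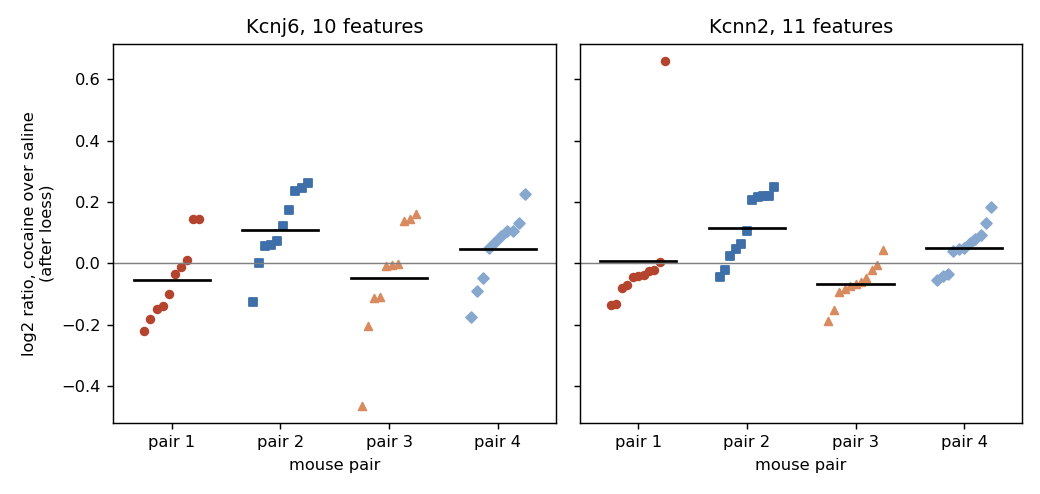
Log2 ratio (cocaine over saline, after loess) of every feature of Kcnj6 and Kcnn2 in each mouse pair, with a black bar for the mean over features. The spots of a gene spread on both sides of 0 within most arrays, and the Kcnn2 means lie between -0.068 and 0.12.

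Markers of the cell types that the dissection could hold were read from 11 lists of 6 to 12 measured genes each. In limma, 0 markers passed the adjusted threshold. At an unadjusted limma p under 0.05 there were 4, where 2.63% of all genes were. They were Adcy5 of 12 striatal projection neuron markers, Ache and Ecel1 of 8 cholinergic ones, and Emx1 of 9 cortical and thalamic glutamatergic ones. The other lists held none. Of these 4, Ache alone had a called dye term. List medians lay between -0.094 for 8 cholinergic neuron markers, of which 6 were below 0, and 0.089 for 10 endothelial markers, of which 8 were above 0. Cholinergic pair medians were 0.063, 0.062, -0.26 and -0.25 in pairs 1 to 4. Endothelial pair medians were 0.27, -0.050, 0.10 and -0.052, with the sign following the dye. The 12 pallidal neuron markers had a median of 0.018 with 7 above 0, and the 12 striatal projection neuron markers 0.0081 with 8 above 0. Their part in the values of the channel genes was not tested.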

How the data were processed

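The authors deposited 1 log2 ratio per feature and array, with 0 missing values. Per the labels, 75 ng of total RNA was amplified and labelled, and Agilent Feature Extraction is the tool in the submitters' processing notes. The sources used here give neither its version nor its normalization. On arrays 1 and 3, 2 to the power of a value is a ratio of whole scanner numbers in 99.99% of values, so the ratios are read as unnormalized. Deposited ratios correlated at 0.892 within 1 dye orientation (pairs 1 and 3) and at -0.847 between (pairs 1 and 2), and are read as turned to 1 treatment direction. Loess within arrays (limma loessFit, span 0.3, 4 iterations) was run on a mean signal recovered from those whole numbers, taken in steps of 0.5 units above a floor of 50. That signal came from arrays 1 and 3 only and was used for all 4 arrays. After loess, gene ratios of cocaine over saline still correlated at 0.549 for pairs 1 and 3 and 0.536 for pairs 2 and 4. Between orientations they lay from -0.409 (pairs 1 and 2) to -0.702 (pairs 3 and 4).

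This recovery replaced an earlier one (whole units, floor 90) after results of the earlier one had been seen; the reason was the spacing of the dim signals, and the earlier one is kept as an alternative. It is coarse: of 5000 simulated features 98.6% were resolved, 13.9% of them within 0.25 log2 of the truth, 77.2% within 0.6 and 96.9% within 1. The simulation shares its assumptions with the recovery. The recovered signal exceeds 65535, the limit of a 16-bit scanner, for 3 member features (1 each of Kcna1, Kcna6 and Kcnmb4), which are read only as bright.

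Of the features, 33653 had 1 symbol, and those of them with a usable signal were averaged by symbol. The 56 with several symbols and the 11511 unnamed here entered neither the averages nor the limma fit. Ratios of 18825 genes were fitted with limma 3.58.1 in R 4.3.3 (lmFit, eBayes, two-sided, Benjamini-Hochberg) with a dye intercept and a cocaine term; 2 residual and 4.06 prior degrees of freedom. Each array holds a different pair of mice per the labels. Named genes are the 10 members with the smallest p, those with 1 sign in all pairs and a change of at least 0.1, the highest and lowest of each subfamily, fixed channels of pallidal neurons (some are not reported here) and the 2 smallest p of each list outside Kcn; members outside the rule give context. Members and lists were chosen with earlier results of these data known.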

Additional observations from a re-analysis of the deposited data

Results flagged for a closer look

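Over 95 sets of 4 pair values (83 genes, 11 subfamily medians and the median of all members), 6 held 1 pair far from the other 3. Chance flags about 1 set in 20 where the 4 values are independent and normal. The pair ratios here still correlated within and between dye orientations, and the sets overlap, so that rate is only a rough guide. Kcnq3 read -1.30 in pair 4 and between -0.066 and 0.091 in the others. Kcnk7, a member of the leak channel family, read -0.32 in pair 2 and between -0.022 and 0.040 elsewhere. Kcnmb4os2 read -0.30 in pair 2 and between 0.0047 and 0.036 elsewhere. Kcnj8 read -0.11 in pair 1 and between 0.18 and 0.21 elsewhere. Kcnk13 read 0.12 in pair 4 and between -0.068 and -0.044 elsewhere. The Kcnk subfamily median was -0.096 in pair 2 and between 0.034 and 0.053 in the other pairs. Pair 2 thus accounts for 3 of the 6, but these are not separate, since Kcnk7 is part of the Kcnk median. The part of the array in these values was not tested.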

How the results depend on the processing

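The count of 0 members at an adjusted p under 0.05 held under every alternative run. Kcnma1 stayed above 0 and Kcnc4 below 0 in all of them. The count of 2 members at an unadjusted p under 0.05 (2.63% of all genes) became 0 with the ratios as deposited (0.377% of all genes), 1 with local medians subtracted (2.66%) and 1 without the dye term (0.579%), and 0 to 9 when 1 pair was left out (0.967% to 13%). Members with a called dye term numbered 5 (11.9% of all genes), and 64 with median centring (75.1%), 52 with the ratios as deposited (68.5%), 11 with arrays scaled to the same spread (15.2%), 0 with dim features left out (1.9%; this keeps 11222 genes, since 150 units is above the median recovered signal of 126), and 1 to 8 with 1 pair left out (2.6% to 13.2%). With the ratios as deposited the median of all genes shifted to -0.083. There the member median was -0.066, and the subfamily medians of Kcnc, Kcnd, Kcnh, Kcnip, Kcnj and Kcnk were -0.20, -0.10, -0.046, -0.18, -0.060 and -0.10; with median centring the Kcnc median was -0.13. Members that changed sign with median centring read Kcna1 -0.15, Kcna3 0.017, Kcnc1 -0.13, Kcnc2 -0.098, Kcnd2 -0.060, Kcnj10 -0.15, Kcnk1 -0.045, Kcnmb4 -0.17, Kcnn2 -0.12. With the ratios as deposited they read Kcna1 -0.22, Kcnc1 -0.20, Kcnc2 -0.17, Kcnd2 -0.13, Kcnd3 -0.011, Kcnip2 -0.014, Kcnj10 -0.22, Kcnj6 -0.021, Kcnj8 -0.056, Kcnk1 -0.12, Kcnmb1 -0.00038, Kcnmb4 -0.24, Kcnn2 -0.19, Kcnq5 -0.0036. With the feature of highest signal for each gene they read Kcnc1 -0.071, Kcnj6 -0.087. With local medians subtracted they read Kcnc1 -0.0074, Kcnip2 -0.0048, Kcnj4 0.00023, Kcnq5 -0.0078. Why these signs turned was not tested; the bright Kcna1, Kcnj10 and Kcnmb4 turn where no loess is applied. With 1 pair left out the member median ranged from 0.0041 to 0.011, and subfamily medians ranged as Kcna -0.030 to 0.17, Kcnb 0.043 to 0.074, Kcnc -0.028 to 0.034, Kcnd 0.0083 to 0.080, Kcnh -0.013 to 0.0074, Kcnip -0.080 to -0.0011, Kcnj 0.0087 to 0.019, Kcnk -0.063 to 0.047, Kcnm 0.035 to 0.13, Kcnn -0.089 to -0.033, Kcnq -0.11 to 0.012. The 18 named members that crossed 0 ranged as Kcna1 -0.029 to 0.19, Kcna3 -0.11 to 0.036, Kcna5 -0.042 to 0.57, Kcnc1 -0.023 to 0.034, Kcnc2 -0.028 to 0.067, Kcnh2 -0.24 to 0.00054, Kcnh5 -0.027 to 0.13, Kcnip1 -0.089 to 0.038, Kcnip2 -0.0063 to 0.028, Kcnj10 -0.0090 to 0.15, Kcnj12 -0.28 to 0.057, Kcnj3 -0.028 to 0.087, Kcnj4 -0.17 to 0.15, Kcnj6 -0.0014 to 0.030, Kcnk12 -0.29 to 0.045, Kcnmb4 -0.017 to 0.13, Kcnn1 -0.18 to 0.021, Kcnq5 -0.0060 to 0.034. A loess span of 0.5 changed no sign and no count of members. The earlier recovery of the signal, added after seeing the data, changed no sign either: it fitted 18770 genes, its changes correlated at 0.995 with those reported, and it gave the same 2 members at an unadjusted p under 0.05, with 6 called dye terms. No paired analysis was possible beyond the one reported, because each ratio already compares the mice of 1 pair and the fit runs over pairs. Dim signals and the number of arrays limit the precision.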
